A study of Mus musculus with 4 samples.

Results

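The interleukins and interleukin receptors were examined in sorted mouse mammary tumor cells. Members were all rows of the deposited expression table whose symbol begins with Il and a digit, apart from Il7r, Il2ra and Il2rb. This gave 79 genes of 24043 rows: 37 ligands, 34 receptor chains, 6 antagonists or decoys, and 2 others. Those 2 are Il4i1, a secreted amino acid oxidase, and Il1bos, a transcript from the strand opposite Il1b.

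Both groups were MMTV-PyMT mice labelled female, in which the mouse mammary tumor virus promoter drives polyoma middle T antigen and causes mammary tumors. All carried the R26Y reporter, a Rosa26 allele that makes yellow fluorescent protein (YFP) once Cre has removed a stop. Cre came from Ad-K8-Cre, an adenovirus injected into the ducts, with Cre under the Krt8 promoter of luminal cells, and YFP+ tumor cells were sorted 2 to 3 months later. Controls, titled wild-type, were Lsd1+/+ and experimental mice were Lsd1L/L, with conditional alleles of the histone demethylase LSD1, encoded by Kdm1a, and each group had 2 libraries. The YFP mark reports recombination of the reporter, not of Lsd1 itself. Whether the libraries of a group came from different mice is not in the labels. The p-values therefore cover the spread between libraries alone, which may be technical. Kdm1a was at 52.5 and 22.9 FPKM in the controls and at 20.2 and 22.8 FPKM in the libraries titled knockout (limma, adjusted p = 0.34), and their tissue label also reads Lsd1+/+. They are therefore called the knockout-labelled libraries. Xist, the transcript that silences an X chromosome in female cells, was at 3.31 and 3.93 FPKM in the controls. In the knockout-labelled pair, also labelled female, it was listed at 0 and at 0.00965 FPKM (limma, adjusted p = 0.024). Tsix, its antisense transcript, was at 5.99 and 9.28 against 0.0204 and 0.0283 FPKM. The 4 Y-linked genes read (Ddx3y, Eif2s3y, Kdm5d and Uty) were listed at 0 in all 4 libraries, so these levels do not settle whether the label is right. The part of the difference in Xist and Tsix in the results below was not tested.

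Interleukins are secreted proteins through which leukocytes and tissue cells signal to each other. Most bind receptors built from several chains, some private to a ligand and others shared: the common gamma chain Il2rg serves interleukins 2, 4, 7, 9, 15 and 21, and gp130, encoded by Il6st, serves interleukins 6, 11 and 27. Type I and II receptors signal through Janus kinases and STAT factors, whereas receptors of the interleukin-1 and interleukin-17 families use adaptor proteins. Many ligands come from activated lymphocytes or myeloid cells, while epithelium expresses chains such as Il17rc, Il17re and Il13ra1.

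The deposited levels name no unit and were taken as FPKM, that is, reads scaled by transcript length and library total, so that genes can be compared with each other. Column totals ran from 401786 to 449838 FPKM. From the spacing of low values, sequencing depth was 0.850 to 1.03 times that of the second knockout-labelled library. Absolute read totals were not given in the sources used here. On the log2(FPKM + 1) scale the control pair had a Pearson correlation across genes of 0.847, against 0.984 for the knockout-labelled pair. Marker sums did not overlap between the groups for T, B and NK cells, neutrophils, epithelium, fibroblasts and endothelium. Those of macrophages and mast cells overlapped. In the limma test described below, no tested macrophage, mast cell, fibroblast, endothelial or epithelial marker passed. The 6 T cell markers summed to 11.2 and 42.2 FPKM in the controls and to 1086 and 1002 FPKM in the knockout-labelled pair, and the 4 B cell markers to 3.90 and 18 against 513 and 502 FPKM. Of the 3 NK cell markers Ncr1 was listed at 0 in both control libraries, and their sum was 0.523 and 0.421 against 44.7 and 45.0 FPKM. The 7 macrophage markers summed to 166 FPKM in the first control library, 4525 FPKM in the second, and 218 and 207 FPKM in the knockout-labelled pair. The 5 epithelial markers, among them Krt8 and Epcam, summed to 10959 and 2380 FPKM in the controls and to 661 and 680 FPKM in the knockout-labelled pair. In the 6 neutrophil markers the sum was 259 and 538 against 1120 and 1202 FPKM, with Mmp8 listed at 0 in the first control library. The 6 fibroblast markers summed to 188 and 443 against 140.1 and 139.9 FPKM, and the 5 endothelial markers to 29.7 and 164 against 21.6 and 20.9 FPKM. The 4 mast cell markers summed to 11.3 and 4.12 against 4.63 and 3.78 FPKM, with 3 and 2 of them listed at 0 in the controls. The part of these cell types in the results below was not tested. In bulk RNA, fewer cells of a type and less RNA per cell cannot be told apart.

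**Figure D1:**
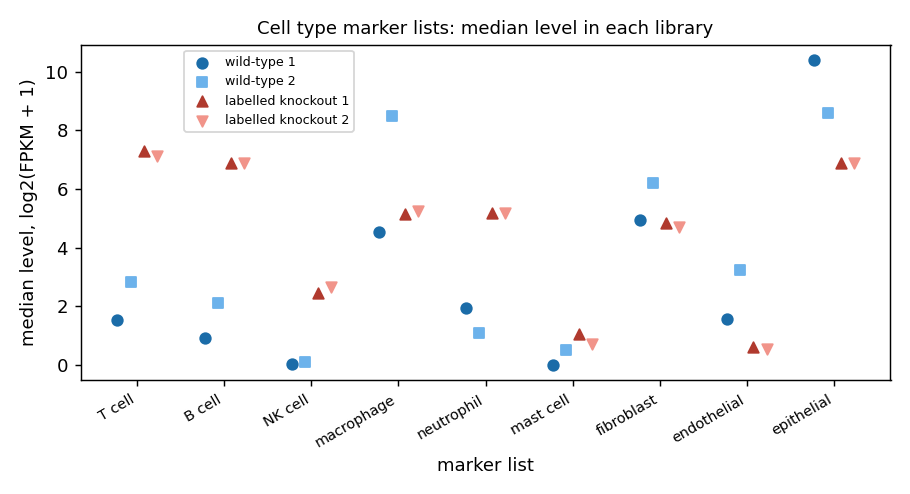
Median level of each cell type marker list (x axis) in each of the 4 libraries, as log2(FPKM + 1) (y axis); each point is 1 library. T, B and NK cell medians are highest in the knockout-labelled pair, the macrophage median in the second control library and the epithelial median in the first.

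Interleukin genes ranged from silent rows to abundant ones. Of the 79 genes, 10 were listed at 0 in all 4 libraries (Il3, Il9, Il25, Il31, Il1f8, Il1f10, Il22ra1, Il31ra, Il1rapl1 and Il1rapl2), 25 were under 1 FPKM throughout, including those 10, and 25 reached at least 1 FPKM in every library. At least 100 FPKM in any library was reached by Il1b, Il2rg and Il21r alone. A level of 1 FPKM was reached by 33 and 41 members in the controls and by 45 and 46 in the knockout-labelled pair. Summed over the 34 receptor chains the level was 136 and 315 FPKM in the controls and 800.2 and 768 FPKM in the knockout-labelled pair. Over the 37 ligands it was 159.8 and 563 FPKM against 418 and 432 FPKM, so that the ligand sums of the groups overlap and the receptor sums do not.

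The design asks which genes depend on the Lsd1 allele in these tumor cells. A gene was tested when it had at least 1 FPKM in at least 2 libraries, which 51 of the 79 did (22 ligands, 25 receptor chains, 3 antagonists or decoys, and Il4i1). By limma on log2(FPKM + 1), with Benjamini-Hochberg adjustment at 0.05 over all 11138 genes tested, 14 of the 51 rose and 6 fell in the knockout-labelled pair, and 31 did not pass. Among all tested genes 9.51% rose and 6.99% fell. Of the 14 that rose, 10 (Il2, Il4, Il5, Il12a, Il17a, Il17f, Il9r, Il18rap, Il12rb1 and Il12rb2) entered the test through the knockout-labelled libraries alone, and such genes had to differ: 62.1% of all genes with that route were called. Among the 38 members at 1 FPKM or more in at least 1 library of each group 4 rose and 5 fell. That is 23.7% called, beside 13.2% of all genes of that kind. This set is not free of the filter: Il16, Il18r1 and Il27ra, which rose, had 1 control library under 1 FPKM. Il17rc, which fell, had 1 knockout-labelled library under it. Groups did not overlap for 22 members that were higher and 14 that were lower, 43.1% and 27.5% of the 51, beside 39.3% and 32.1% of all tested genes, in all 70.6% beside 71.4%, so this share is near the background.

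The median difference was 0.93 over the 25 tested receptor chains and -0.22 over the 22 tested ligands, beside 0.08 over all tested genes. The order of these medians rested on the second control library: without it they were 0.74 for receptor chains and 0.79 for ligands. With the first control library dropped they were 0.46 and -0.46. Both medians include genes that were listed at 0 in 1 or both of the control libraries, whose fitted difference depends on the pseudocount of 1. They also depend on the filter: 4 receptor chains and 6 ligands entered through the knockout-labelled libraries alone. Through the control libraries alone 1 receptor chain and 2 ligands entered. With no filter on low values the medians were 0.41 and 0.064. Counts of calls with a library left out depend on the spread of the pair that remains, and do not show which library a call needed. The control pair lay further apart (correlation 0.847) than the knockout-labelled libraries (0.984). With the first or the second of these left out, none of the 11138 genes passed (limma; 1385 and 1346 at an unadjusted p under 0.05, of them 21 and 20 interleukin genes), whereas with a control library dropped 45 (first) and 44 (second) of the 51 passed, as did 69.3% and 71.0% of all tested genes. No called member changed direction in any of these settings.

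**Figure D2:**
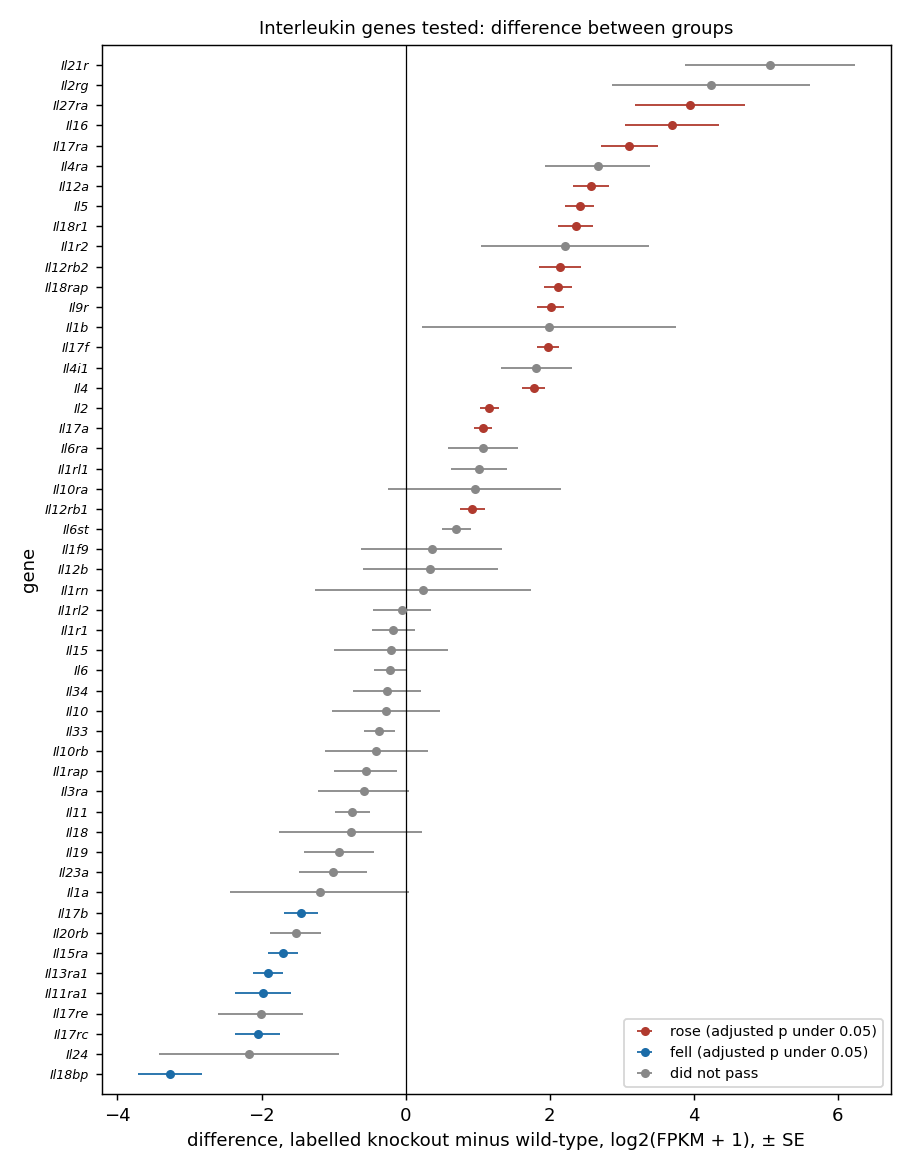
Difference between the groups for each of the 51 tested genes (y axis), as knockout-labelled minus control on the log2(FPKM + 1) scale with its SE from limma (x axis), red for the 14 that rose, blue for the 6 that fell and grey for the 31 that did not pass. The widest error bars belong to Il1b, Il1rn and Il2rg, whose control libraries lie far apart.

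Receptor chains that signal through the common gamma chain held the highest levels in the knockout-labelled pair, but 3 of the 5 did not pass. Il2rg, the common gamma chain itself, was at 3.65 and 64.2 FPKM in the controls and at 349.9 and 308 FPKM in the knockout-labelled pair, a difference of 4.24 (SE 1.38; limma, adjusted p = 0.11). Il21r, the private chain for interleukin-21, was at 0.943 and 17.5 FPKM against 197 and 199.6 FPKM, a difference of 5.05 (SE 1.18; limma, adjusted p = 0.063). Il4ra, the chain that binds interleukin-4, was at 4.85 and 22.0 FPKM against 68.5 and 76.8 FPKM (2.66, SE 0.73; limma, adjusted p = 0.081). In all of these both knockout-labelled libraries lay above both control libraries, and the first control library was the lowest. The difference in Il2rg was 2.34 when the first control library was dropped and 6.15 when the second was.

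Il9r, the private chain for interleukin-9, rose, having entered the test through the knockout-labelled libraries alone. It was listed at 0 in the first control library, stood at 0.174 FPKM in the second and at 3.57 and 3.18 FPKM in the knockout-labelled pair (limma, adjusted p = 0.024). The opposite held for Il15ra, which presents interleukin-15 to neighbouring cells: it fell from 14.3 and 13.1 FPKM to 3.66 and 3.39 FPKM, by 1.70 (SE 0.21; limma, adjusted p = 0.029). Its control libraries were close to each other, unlike those of Il2rg. Chains for interleukins 2 and 7 that the members leave out were not examined here.

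In the interleukin-17 receptor family the chains moved apart. Il17ra, the chain shared by all forms of the receptor and abundant in blood cells, rose from 2.67 and 6.12 FPKM to 41.5 and 44.6 FPKM, by 3.11 (SE 0.39; limma, adjusted p = 0.030). Il17rc, which pairs with Il17ra to bind interleukins 17A and 17F, fell from 9.91 and 6.28 FPKM to 0.930 and 1.39 FPKM, by 2.05 (SE 0.31; limma, adjusted p = 0.036). Il17re, the epithelial chain for interleukin-17C, was at 18.5 and 5.66 FPKM against 1.74 and 1.91 FPKM (limma, adjusted p = 0.092). Il17rb and Il17rd were under 1 FPKM in every library and were not tested. Within each library the ratio of Il17rc to Il17ra was 3.72 and 1.02 in the controls and 0.0224 and 0.0311 in the knockout-labelled pair. The more abundant chain of the pair was thus Il17rc in the first control library and Il17ra in both knockout-labelled libraries, with the second control library near balance.

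Interleukin-4 and interleukin-13 can also act through Il13ra1, which pairs with Il4ra. Il13ra1 fell from 18.8 and 16.9 FPKM to 4.08 and 3.91 FPKM, by 1.91 (SE 0.21; limma, adjusted p = 0.025). Its ratio to Il4ra was 3.87 and 0.767 in the controls and 0.0596 and 0.0509 in the knockout-labelled pair. The decoy chain Il13ra2 reached 0.206 FPKM in the second control library and was listed at 0 in the other 3.

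**Figure D3:**
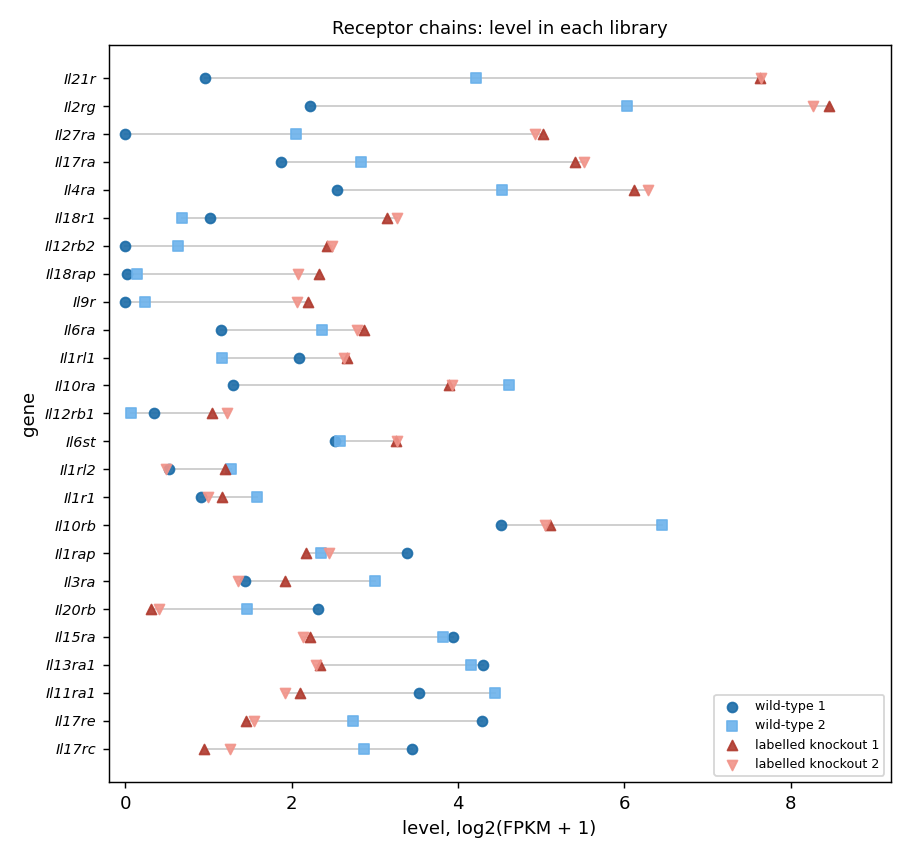
Level of each of the 25 tested receptor chains (y axis, ordered by the difference between groups) in each of the 4 libraries, as log2(FPKM + 1) (x axis); grey lines join the lowest and highest library. The 2 knockout-labelled libraries lie close together in most rows, while the control libraries lie apart for Il21r, Il2rg, Il27ra and Il10ra.

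Chains of the gp130 family split as well. Il27ra, the private chain for interleukin-27, rose: it was listed at 0 in the first control library, at 3.16 FPKM in the second and at 31.6 and 29.3 FPKM in the knockout-labelled pair, a difference of 3.95 (SE 0.77; limma, adjusted p = 0.047). Il11ra1, the chain for interleukin-11, fell from 10.5 and 20.7 FPKM to 3.28 and 2.79 FPKM, by 1.97 (SE 0.39; limma, adjusted p = 0.048). The mouse genome holds near-identical copies of Il11ra1, and reads could be split between them, so its value is uncertain. Il6st, gp130 itself, was nearly level within each group, at 4.74 and 5.0 FPKM in the controls and 8.54 and 8.58 FPKM in the knockout-labelled pair (0.70, SE 0.20; limma, adjusted p = 0.089). Il6ra, the interleukin-6 chain, was at 1.22 and 4.14 against 6.28 and 5.90 FPKM (limma, adjusted p = 0.19). The ratio of Il11ra1 to Il6st was 2.22 and 4.14 in the controls against 0.384 and 0.325. Il27ra was 3.70 and 3.41 times as abundant as Il6st in the knockout-labelled pair and 0.632 times in the second control library.

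Both receptors for the inducers of interferon gamma, interleukins 12 and 18, were higher in the knockout-labelled pair. Of their chains only Il18r1 reached 1 FPKM in a control library. Il18rap, Il12rb1 and Il12rb2 entered the test through the knockout-labelled libraries alone, so their calls add little to their levels. Il18r1, the binding chain for interleukin-18, rose from 1.02 and 0.603 FPKM to 7.86 and 8.66 FPKM, by 2.36 (SE 0.24; limma, adjusted p = 0.025). Its partner Il18rap rose from 0.0161 and 0.0973 FPKM to 4.0 and 3.20 FPKM (limma, adjusted p = 0.024). Il12rb2, the signalling chain for interleukin-12, was listed at 0 in the first control library, stood at 0.549 FPKM in the second and rose to 4.37 and 4.58 FPKM (limma, adjusted p = 0.032). Il12rb1, shared with interleukin-23, rose from 0.269 and 0.0513 FPKM to 1.07 and 1.34 FPKM (limma, adjusted p = 0.046), and its call ended after median centring (adjusted p = 0.059) and after quantile normalization (adjusted p = 0.11). Il23r was under 1 FPKM in every library and was not tested. In the same libraries 3 of 3 NK cell and 5 of 6 T cell markers rose (Cd4 did not pass), and their part was not tested.

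The remaining chains did not pass. Il10rb, shared by the receptors for interleukins 10 and 22, was at 22.0 and 86.8 FPKM in the controls and 33.5 and 32.1 FPKM in the knockout-labelled pair, and Il10ra, the binding chain for interleukin-10, at 1.46 and 23.4 against 13.8 and 14.2 FPKM. Their groups overlapped, with the second control library on top in both. Il20rb, a chain for interleukins 19, 20 and 24, was at 3.97 and 1.74 FPKM against 0.239 and 0.324 FPKM (limma, adjusted p = 0.061), and its partner Il20ra, not tested, was at 0.802 and 0.436 FPKM in the controls and listed at 0 in both knockout-labelled libraries. Il1rl1, the interleukin-33 receptor of mast cells and regulatory T cells, was at 3.25 and 1.24 against 5.33 and 5.18 FPKM (limma, adjusted p = 0.14). Il1rap, the accessory chain of the interleukin-1 family, was at 9.49 and 4.09 against 3.52 and 4.45 FPKM, and the groups overlapped. Il1r1, Il1rl2 and Il3ra lay between 0.400 and 7.02 FPKM with overlapping groups.

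**Figure D4:**
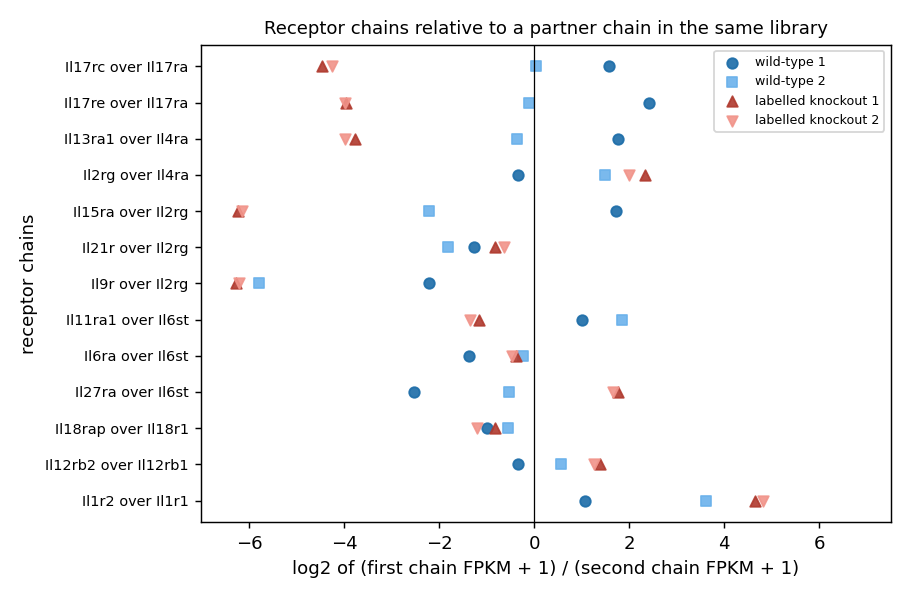
Level of a receptor chain relative to a partner chain within each library, as log2 of the ratio of FPKM + 1 (x axis), for 13 chain pairs (y axis); each point is 1 library and the vertical line marks equal levels. For Il17rc and Il17re over Il17ra, Il13ra1 over Il4ra and Il11ra1 over Il6st, both knockout-labelled libraries lie below 0 and below both control libraries.

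Il4 and Il5, products of type 2 helper T cells, Il17a and Il17f, products of type 17 helper T cells, and Il2, a T cell growth factor, all rose from levels at or near 0. Each entered the test through the knockout-labelled libraries alone. Il3, Il9 and Il31, which activated T cells also secrete, were listed at 0 in all 4 libraries. Their promoters are shown for 2 clusters, Il4 with Il5 on chromosome 11 and Il17a with Il17f on chromosome 1, as the 250 bases before the most upstream start in RefSeq (GRCm38.p6, not the mm9 build of the deposited files). Promoters of 2 receptor chains that fell, Il13ra1 and Il17rc, follow for comparison. Capitals in the ligand promoters mark TATAAA (the TATA box letters), TGANTCA (AP-1), TTCNNNGAA (STAT) or TGGAAA (the NFAT core) on either strand, and capitals in the receptor promoters mark CG dinucleotides.
Il4, chr11:53618666-53618915, minus strand: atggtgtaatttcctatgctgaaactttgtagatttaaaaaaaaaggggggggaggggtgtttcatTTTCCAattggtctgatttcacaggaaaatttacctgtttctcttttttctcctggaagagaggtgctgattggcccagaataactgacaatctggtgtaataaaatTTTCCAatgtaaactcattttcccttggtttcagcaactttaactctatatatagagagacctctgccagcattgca
Il5, chr11:53720544-53720793, plus strand: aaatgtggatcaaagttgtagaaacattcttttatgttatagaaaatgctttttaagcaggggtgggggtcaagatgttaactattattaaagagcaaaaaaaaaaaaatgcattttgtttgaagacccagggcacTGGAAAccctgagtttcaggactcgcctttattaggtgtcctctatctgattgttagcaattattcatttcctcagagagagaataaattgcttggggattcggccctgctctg
Il17a, chr1:20730655-20730904, plus strand: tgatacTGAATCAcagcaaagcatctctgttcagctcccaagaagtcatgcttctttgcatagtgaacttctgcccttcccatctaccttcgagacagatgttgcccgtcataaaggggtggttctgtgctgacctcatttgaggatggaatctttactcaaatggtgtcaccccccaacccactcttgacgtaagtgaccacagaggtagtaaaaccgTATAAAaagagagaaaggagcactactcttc
Il17f, chr1:20784271-20784520, minus strand: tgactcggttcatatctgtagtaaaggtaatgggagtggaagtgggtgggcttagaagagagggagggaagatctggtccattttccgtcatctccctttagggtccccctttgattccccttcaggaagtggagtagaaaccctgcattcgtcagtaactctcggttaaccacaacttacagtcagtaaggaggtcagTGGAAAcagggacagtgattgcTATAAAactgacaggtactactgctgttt
Il13ra1, chrX:36111858-36112107, plus strand: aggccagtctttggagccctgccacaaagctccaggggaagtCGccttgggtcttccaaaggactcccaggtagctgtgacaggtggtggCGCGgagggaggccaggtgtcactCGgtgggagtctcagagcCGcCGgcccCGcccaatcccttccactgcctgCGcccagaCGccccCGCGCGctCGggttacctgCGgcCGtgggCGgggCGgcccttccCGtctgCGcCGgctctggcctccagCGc
Il17rc, chr6:113471205-113471454, plus strand: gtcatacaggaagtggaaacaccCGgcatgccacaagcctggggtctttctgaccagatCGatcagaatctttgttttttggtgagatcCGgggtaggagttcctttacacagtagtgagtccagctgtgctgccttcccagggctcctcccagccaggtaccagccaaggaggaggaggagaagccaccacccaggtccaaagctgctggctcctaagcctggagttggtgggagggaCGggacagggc

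In the promoter of Il17a the letters TATAAA began 31 bases before the start, and in that of Il17f 29 bases before it. Il4 held TGGAAA on the other strand, read as TTTCCA, at 184 and 77 bases before the start, and Il5 held it on the gene's own strand at 114 bases. Il17rc, which fell, held TGGAAA as well, at 237 bases (not in capitals above). By direction, 6 of 11 matched members that rose and 3 of 5 that fell held these letters. Of the 79 members 63 were matched in the promoter table, 27 of them ligands and 29 receptor chains. TATAAA was present in 10 of the 27 ligand promoters (37.0%) and in 1 of the 29 receptor promoters (3.45%), beside 13% of all 27025 promoters of that length. The full set was not limited to coding genes, unlike the ligands and receptor chains. TGGAAA was present in 13 ligand (48.1%) and 6 receptor promoters (20.7%), beside 18.8% of all. TTCNNNGAA was found in 2 ligand and 2 receptor promoters (7.41% and 6.90%, beside 7.14% of all), and TGANTCA in 6 and 4 (22.2% and 13.8%, beside 6.85%). The median number of CG dinucleotides was 2 in ligand and 4 in receptor promoters, beside 6 over all promoters, with 0 in Il4 and 21 in Il13ra1. Such matches describe the letters of the window and are not measured sites.

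The levels of these ligands were low. Il4 was listed at 0 in both control libraries and was at 2.63 and 2.24 FPKM in the knockout-labelled pair (limma, adjusted p = 0.024). Il5 was listed at 0 and stood at 0.172 FPKM in the controls, against 4.56 and 4.99 FPKM (limma, adjusted p = 0.024). Il13, which lies beside Il4, was listed at 0 in the controls and reached 0.167 and 0.0775 FPKM, too low to be tested. The type 2 ligands thus differed in level among themselves, with Il5 above Il4 and both above Il13 in each knockout-labelled library.

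Il17a was listed at 0 in both control libraries and was at 1.08 and 1.13 FPKM in the knockout-labelled pair (limma, adjusted p = 0.028). Il17f was likewise listed at 0 and was at 3.02 and 2.84 FPKM (limma, adjusted p = 0.024), so that it was the more abundant of the pair in both. Il22, another product of type 17 cells, was listed at 0 in the controls and was at 0.593 and 1.58 FPKM, with 1 library at 1 FPKM or more, and was not tested. Il2 was listed at 0 in the controls and was at 1.31 and 1.16 FPKM (limma, adjusted p = 0.027), while its neighbour Il21, the ligand for Il21r, was at 0.203 and 0.0403 FPKM. In all, 8 ligands were listed at 0 in both control libraries and above 0 in both knockout-labelled libraries (Il2, Il4, Il13, Il17a, Il17f, Il21, Il22 and Il1f6). No ligand showed the reverse. Neither pattern was counted over all genes, so this imbalance is not shown to be particular to the ligands.

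Il16 and Il12a rose and Il17b fell. Il12a entered the test through the knockout-labelled libraries alone, and Il17b through the control libraries alone. Il16, a chemoattractant for CD4 cells that lymphocytes store as a precursor, was at 0.387 and 3.59 FPKM in the controls and at 31.8 and 31.7 FPKM in the knockout-labelled pair, a difference of 3.70 (SE 0.65; limma, adjusted p = 0.041). Il12a, the p35 subunit shared by interleukins 12 and 35, was listed at 0 in the first control library, at 0.214 FPKM in the second and at 4.74 and 6.47 FPKM in the knockout-labelled pair (limma, adjusted p = 0.024). Il12b, the p40 subunit that interleukin-12 also needs, did not follow: it was listed at 0 in the first control library and was at 4.91 FPKM in the second, against 2.08 and 2.09 FPKM. Il17b fell from 2.49 and 1.88 FPKM to 0.344 FPKM in the first knockout-labelled library, and was listed at 0 in the second (limma, adjusted p = 0.038). The related Il17d, with 1.99 and 0.853 FPKM in the controls and 0.165 FPKM or listed at 0 in the knockout-labelled pair, was not tested. With a pseudocount of 0.1 the calls of Il16, Il17b, Il27ra, Il11ra1, Il12rb1 and Il12rb2 ended (limma, adjusted p = 0.069, 0.076, 0.11, 0.051, 0.071 and 0.074).

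**Figure D5:**
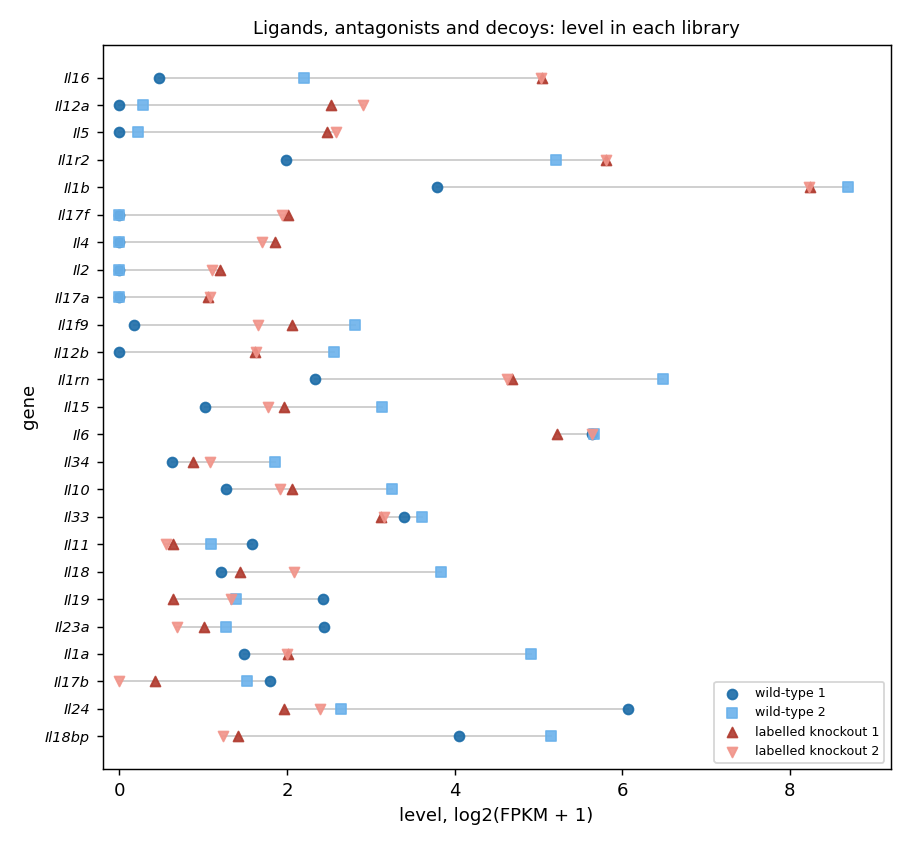
Level of each of the 22 tested ligands and 3 tested antagonists or decoys (y axis, ordered by the difference between groups) in each of the 4 libraries, as log2(FPKM + 1) (x axis); grey lines join the lowest and highest library. The second control library is the highest for Il1b, Il1rn, Il1a, Il18, Il10 and Il15, and the first for Il24, Il23a and Il19.

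Among the more abundant ligands Il1b, Il6 and Il33 did not pass. The groups overlapped for Il1b, while for Il6 and Il33 both knockout-labelled libraries lay below both control libraries. Il1b, the inflammatory cytokine of activated myeloid cells, was at 12.9 FPKM in the first control library, 413 FPKM in the second, and 301 and 299 FPKM in the knockout-labelled pair (limma, adjusted p = 0.45). It made up 8.05% of the summed ligand level in the first control library and 73.3, 71.9 and 69.2% in the other 3. Its difference was 1.99 with all libraries, -0.46 with the first control library dropped and 4.44 with the second dropped. Il1bos, on its opposite strand, was at 0.383 FPKM in the second control library, 0.421 and 0.586 FPKM in the knockout-labelled pair, and listed at 0 in the first control library. Il6 was alike in 3 libraries, with 48.9 and 49.7 FPKM in the controls and 36.4 and 48.7 FPKM in the knockout-labelled pair (-0.22, SE 0.22; limma, adjusted p = 0.50). Il33, an alarm signal held in the nucleus of epithelial and stromal cells, was at 9.53 and 11.2 against 7.70 and 7.94 FPKM (limma, adjusted p = 0.28).

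A further group of genes was highest in the second control library, the one with the highest macrophage markers. On the FPKM + 1 scale 8 of the 51 tested members (15.7%) stood there at least 2-fold above each other library, beside 5.22% of all tested genes: Il1a, Il1rn, Il10, Il15, Il18, Il18bp, Il3ra and Il10rb. Il1a was at 29.0 FPKM there and at 1.80, 3.02 and 3.00 FPKM in the first control library and the knockout-labelled libraries. Il18 was at 13.3 FPKM against 1.32, 1.71 and 3.23 FPKM, and Il10, a ligand that restrains inflammation, at 8.54 FPKM against 1.41, 3.15 and 2.78 FPKM. Il27, the private subunit of interleukin-27, passed 1 FPKM in that library alone. Il15, Il34 and Il1f9 reached 7.79, 2.61 and 6.04 FPKM there, each the highest of the 4 libraries.

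In the first control library, where epithelial markers were highest, 4 of the 51 (7.84%) stood at least 2-fold above each other library. Beside 5.84% of all tested genes, this share is near the background. These were Il24, Il19, Il23a and Il17re. Il24, a ligand of the interleukin-10 family that acts on epithelium, was at 66.0 FPKM there and at 5.26 FPKM in the second control library, against 2.89 and 4.26 FPKM in the knockout-labelled pair (-2.18, SE 1.25; limma, adjusted p = 0.27). It was the most abundant ligand of that library, with 41.3% of the summed ligand level. Il19 was at 4.39 and 1.62 against 0.563 and 1.52 FPKM, and Il23a, the p19 subunit of interleukin-23, at 4.42 and 1.42 against 1.0 and 0.605 FPKM (limma, adjusted p = 0.20). Il11 was at 2.01 and 1.13 against 0.561 and 0.473 FPKM (limma, adjusted p = 0.11). None of the members had such a peak in a knockout-labelled library. Such peaks were rare there in all tested genes (0.0269% in the first and 0.0718% in the second), so this is near the background.

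Antagonists and decoys differed from one another. Il18bp, the secreted protein that binds and blocks interleukin-18, fell from 15.6 and 34.5 FPKM to 1.68 and 1.36 FPKM, by 3.27 (SE 0.45; limma, adjusted p = 0.032), the largest fall among the tested members. Il18r1 and Il18rap, the receptor for the ligand that it blocks, rose in the same libraries. Il1rn, the interleukin-1 receptor antagonist, was at 4.03 and 88.7 FPKM against 24.6 and 23.7 FPKM, with overlapping groups. Il1r2, a decoy receptor for interleukin-1 that neutrophils and regulatory T cells carry, was at 2.96 and 35.9 FPKM against 54.9 and 54.8 FPKM (limma, adjusted p = 0.24). Its ratio to the signalling chain Il1r1 was 3.35 and 17.9 in the controls and 44.2 and 55.6 in the knockout-labelled pair. Il1f5 and Il22ra2 were under 1 FPKM in every library. Il4i1 was at 0.533 and 2.58 against 6.5 and 8.07 FPKM (limma, adjusted p = 0.081).

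Several members are neighbours in the genome. By the RefSeq gene order (GRCm38.p6), Il1r2, Il1r1, Il1rl2, Il1rl1, Il18r1 and Il18rap follow each other on chromosome 1 with no other coding gene between them. Within that row Il18r1 and Il18rap rose, Il1r2 and Il1rl1 were higher in both knockout-labelled libraries without passing, and Il1r1 and Il1rl2 had overlapping groups. Il17re lies beside Il17rc and both were lower, and Il4ra lies beside Il21r and both were higher. In another row of chromosome 1, Il24 and Il19 were highest in the first control library while Il10 was highest in the second. Of the 10 neighbouring member pairs with both genes tested, 7 had differences of the same sign (70%), beside 55.7% of 5989 neighbouring coding pairs in the table. Reads of overlapping genes cannot be told apart unless counting used the strand, which was not stated. The span of a tested member overlapped a gene of another name for 21 of the 51, among them Il1b, which overlaps Il1bos. A coding gene was overlapped by 6: Il11, Il18, Il4i1, Il11ra1, Il12rb2 and Il27ra.

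The signalling genes downstream of these receptors were read from a list of 41 genes outside the members. Of these 37 were tested, 9 rose, 3 fell and 25 did not pass, beside 9.51% and 6.99% of all tested genes that rose and fell, with a median difference of 0.65 beside 0.08 over all tested genes. Of the 7 STAT genes 5 rose, beside the same 9.51% of all tested genes. Stat4, which carries the interleukin-12 signal, went from 0.993 and 2.83 FPKM to 78.5 and 74.7 FPKM (limma, adjusted p = 0.024), Stat5a from 6.15 and 7.59 to 35.9 and 31.7 FPKM, and Stat5b from 6.22 and 6.46 to 33.1 and 35.3 FPKM. Stat3 and Stat6 rose by 1.33 and 1.31. Of the 4 Janus kinase genes Jak2 rose, from 3.53 and 6.73 FPKM to 21.3 and 23.5 FPKM, and Jak1, Jak3 and Tyk2 did not pass. The feedback genes moved in both directions: Socs1, from 6.16 and 15.8 to 87.5 and 92.7 FPKM, and Cish rose, whereas Socs2, a feedback gene of growth hormone and prolactin signalling, fell from 20.1 and 16.2 to 4.98 and 4.52 FPKM. Of 8 adaptors and regulators of the interleukin-1 and Toll receptors none passed, and 7 had a positive difference. Among related chains and ligands Lifr, the receptor for leukemia inhibitory factor, fell from 4.85 and 5.03 to 1.16 and 1.18 FPKM, while Clcf1, a ligand of the interleukin-6 family, rose from 2.78 and 4.25 to 16.5 and 20.0 FPKM (limma, adjusted p = 0.031). In the same libraries 5 of 6 T cell and 4 of 4 B cell markers rose, and their part was not tested.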

How the data were processed

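Libraries for RNA-seq of the sorted YFP+ cells were prepared with the Clontech SMARTer v4 kit for low input, per the labels' protocols. The submitters' processing notes name the build mm9. Aligner, quantifier and gene models were not given in the sources used here for this table. The values the authors deposited were taken as FPKM. The header gives no unit: column totals differ, unlike TPM, and values are not whole numbers. Low values of a gene (under 0.1 FPKM) formed whole-number ratios between libraries, within 0.2%, in 49.6 to 60.4% of genes after depth was matched, and in 0 to 0.548% at another scaling. No count model was fitted.

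All 92 spike-in rows, each at 0, were left out. The test was limma (3.58.1, R 4.3.3) with trend and robust prior, genotype being the sole term, on log2(FPKM + 1). A row entered it with 1 FPKM or more in 2 or more libraries. On this scale the change of a low gene is understated. Regrouping 2 libraries against 2 allows 3 splits, and an exact two-sided permutation p cannot go below 0.333, so adjusted p-values rest on the model. The fit was tested on simulated data with the same spread in both groups. The control pair lay further apart than the knockout-labelled pair, and the simulation does not cover that case. Values in every library are given for members that passed, that averaged at least 5 FPKM, or whose groups did not overlap with a difference of at least 1. Other members named were chosen after their values were seen, as were the chain pairs and promoters. Members and lists were chosen with earlier results of these data known. Emr1 was read for Adgre1. A signalling gene is counted but not reported here by name. Alternatives were other pseudocounts, filters and scalings, a replicate block, and leaving out each library.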

Additional observations from a re-analysis of the deposited data

How the results depend on the processing

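The 14 members that rose and 6 that fell, and the 1837 genes called in all, became 0, 0 and 2 with no filter on low values (limma; 34 members and 5063 genes at an unadjusted p under 0.05). There the receptor median was 0.41 and the ligand median 0.064. In that setting 17257 genes were tested, and the called members had adjusted p-values of 0.055 to 0.085. With at least 5 FPKM in 2 libraries 25 members were tested, of which 4 rose and 5 fell. That is 36% called, beside 23% of all 7104 genes tested in that setting. Leaving out 1 library gave 0 to 31 members higher, 0 to 23 lower and 0 to 7912 genes in all, with medians of 0.46 to 0.97 for receptor chains and -0.46 to 0.79 for ligands. With 1 library left in a group, it is assumed to vary like the others. Among members given in every library by the rule above, some outside the 20 calls turned direction with a wild-type library left out. Without the first and without the second, Il1b was at -0.46 and 4.44, Il1rn at -1.84 and 2.32, Il10ra at -0.70 and 2.61, Il1a at -2.90 and 0.52, and Il10rb at -1.38 and 0.56. Other members were not read this way, though Il10, Il12b and Il15 also had control libraries on both sides of the knockout-labelled pair. Median centring, quantile normalization and rescaling to a common total left 19, 19 and 20 of the 20 calls. Titles share replicate numbers, but nothing says that these pair the samples, and deviations of same-numbered libraries had a correlation of -0.0619 across genes. With the replicate block 1 member fell and 501 genes passed, and 11 of the 20 calls remained. Depth limits the lowest members, and a gene listed at 0 is not shown to be absent.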
